A study of Homo sapiens with 12 samples.

Results

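CNIH3, PLCG2, UPP1, SLCO4A1, PHYKPL, ANKRD29 and ITPKA are 7 of the 11154 genes tested in HK-2 cells, and they were selected because their signal was higher with CsA than in control cultures at 48 h; several were also selected for differing from 12 h. All probe sets annotated to exactly 1 gene among them were taken, which gave 16 probe sets. The values that chose the genes are therefore given as descriptions, without a test, wherever CsA is set against control at 48 h, wherever 48 h is set against 12 h, and wherever the CsA difference at 48 h is set against that at 12 h. The name of late risers refers to CsA against control at 48 h, the rise by which all 7 genes were selected, and is not a result. As a change with time it does not describe SLCO4A1, whose level with CsA was lower at 48 h than at 12 h.

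HK-2 is an immortalized epithelial line from human kidney proximal tubule. Cultures near confluence received either CsA, read here as cyclosporin A, or the control vehicle, for 12 h or 48 h, in a medium that held EGF, hydrocortisone, insulin, transferrin and selenite in all groups. The sources used here name neither a dose of CsA nor the vehicle. Each of the 4 groups, control at 12 h, CsA at 12 h, control at 48 h and CsA at 48 h, had 3 arrays that the labels call biological replicates, 12 arrays in all, and expression was measured on Affymetrix arrays as log2 values.

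Cyclosporin A binds cyclophilins, and the complex inhibits calcineurin, the phosphatase that lets NFAT transcription factors enter the nucleus; the drug is known for toxicity to the kidney tubule. The 7 genes have different roles. PLCG2 and ITPKA act on phosphoinositide signals: phospholipase C gamma cleaves a membrane lipid into diacylglycerol and IP3, which releases calcium from the endoplasmic reticulum, and ITPKA phosphorylates IP3. CNIH3 is a cornichon protein that accompanies AMPA-type glutamate receptors out of the endoplasmic reticulum, UPP1 splits uridine into uracil and a ribose phosphate in pyrimidine salvage, PHYKPL degrades phosphorylated hydroxylysine from collagen breakdown, SLCO4A1 is an organic anion transporter that carries thyroid hormone, and ANKRD29 is an ankyrin-repeat protein of little known function.

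RefSeq promoter windows of the GRCh38.p14 assembly, the 250 bases before each annotated start, were found for 5 of the 7 genes, in 10 windows. The windows of PLCG2, UPP1 and ITPKA are printed because they hold the widest contrast in the motifs searched, from NFAT cores to GC boxes alone. Capitals mark every match of a searched motif, on either strand, and matches of the same motif were allowed to overlap. The PLCG2 window is chr16:81738791-81739040, the UPP1 window is chr7:48088454-48088703 and the ITPKA window is chr15:41493624-41493873, all on the plus strand.
PLCG2: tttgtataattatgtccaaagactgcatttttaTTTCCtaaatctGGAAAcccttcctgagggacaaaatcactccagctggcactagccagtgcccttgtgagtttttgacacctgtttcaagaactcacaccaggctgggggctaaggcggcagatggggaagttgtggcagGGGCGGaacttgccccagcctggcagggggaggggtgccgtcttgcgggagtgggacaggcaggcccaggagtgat
UPP1: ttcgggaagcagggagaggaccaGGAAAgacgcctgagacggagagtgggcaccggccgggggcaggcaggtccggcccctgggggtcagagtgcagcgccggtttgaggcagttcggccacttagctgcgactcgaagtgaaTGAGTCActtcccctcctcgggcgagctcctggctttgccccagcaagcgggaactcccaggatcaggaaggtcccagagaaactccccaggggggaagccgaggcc
ITPKA: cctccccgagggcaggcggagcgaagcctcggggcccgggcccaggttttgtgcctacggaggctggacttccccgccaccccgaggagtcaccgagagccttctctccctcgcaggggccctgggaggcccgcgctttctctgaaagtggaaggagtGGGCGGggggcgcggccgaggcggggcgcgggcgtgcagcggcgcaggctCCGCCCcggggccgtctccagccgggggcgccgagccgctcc
Positions count back from -1, the base before the start, to the first base of the match. The PLCG2 window held the NFAT core GGAAA at -205 and its reverse complement TTTCC at -217, with 1 GC box GGGCGG at -76. This UPP1 window, 1 of 3 for that gene, held GGAAA at -227 and the AP-1 site TGAGTCA at -107, which was the only match of TGANTCA in any of the 10 windows. The ITPKA window held the GC box GGGCGG at -92 and its reverse complement CCGCCC at -42 and no NFAT core. The NFAT core was found in 4 of the 5 genes and in 7 of the 10 windows, and in 55.6% of all 35116 RefSeq promoter windows of the same length. GC boxes were found in all 5 genes and in 8 of the 10 windows, against 42.6% of all windows, and TGANTCA in 6.57% of all windows. Some windows of CNIH3, UPP1 and PHYKPL overlap another window of the same gene, so a site can be counted more than once. The shares over all windows are per window and not per gene. None of the 10 windows held the cAMP response element TGACGTCA, the ATF4 composite element TGATGNAA, the E-box CACGTG, the TEAD site GGAATG or the TATA box TATAAA, which were found in 1.65%, 3.14%, 6.34%, 11.9% and 10.7% of all windows. A match gives letters only and no binding.

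Of the 16 probe sets of the 7 genes, 11 passed the filter of log2 above 4 on at least 3 arrays, and every gene had at least 1 of them. Arrays with log2 under 4 are called near background here, and a group is near background when all 3 of its arrays are. The other 5 probe sets were near background in all groups: 1 of CNIH3, 2 of PLCG2, 1 of SLCO4A1 and 1 of PHYKPL. Each gene is represented below by its brightest probe set (highest 12-array mean), and the others are described beside it. On that probe set, all CsA arrays lay above all control arrays at 48 h in 7 of 7 genes, which the selection fixed; the same was seen in 13.9% of the 11154 genes.

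**Figure D1:**
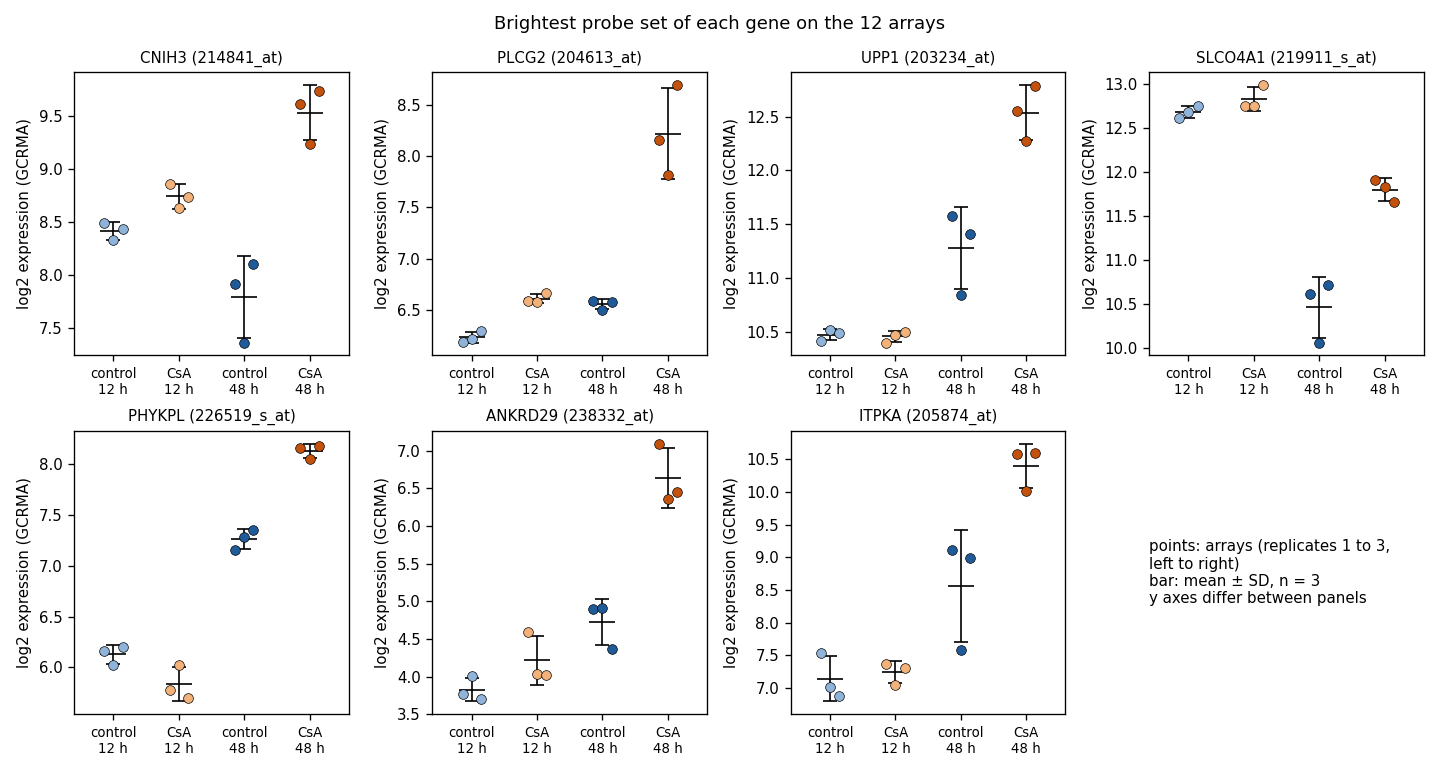
Log2 expression of the brightest probe set of each gene on the 12 arrays, by group; points are arrays and bars are the mean ± SD of 3 arrays, with a separate y axis for each gene. In all 7 panels the CsA arrays of 48 h sit above the control arrays of 48 h; SLCO4A1 is the panel in which both 48 h groups sit below both 12 h groups.

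PLCG2, the phospholipase C gamma best known from B cells and other blood cells, stood out at 48 h with CsA. On probe set 204613_at the control arrays read 6.19, 6.22 and 6.30 at 12 h and 6.59, 6.50 and 6.58 at 48 h. The CsA arrays read 6.59, 6.58 and 6.66 at 12 h and 8.15, 7.81 and 8.69 at 48 h. The 3 CsA arrays of 48 h stood above the other 9, whereas control at 48 h and CsA at 12 h overlapped and both lay above control at 12 h. At 48 h the mean was 8.22 ± 0.44 with CsA and 6.56 ± 0.05 in control (SD, n = 3), a difference of 1.66 (SE 0.26) or 3.16-fold, the 12th highest of 11154 genes.

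A second PLCG2 probe set, 230917_at, was also highest with CsA at 48 h. It read 2.85, 2.70 and 2.81 in control and 3.18, 3.14 and 2.86 with CsA at 12 h, all near background. At 48 h it read 3.99, 3.19 and 3.93 in control, still near background, and 4.74, 5.15 and 4.39 with CsA. Its 48 h difference of 1.06 (SE 0.34) sets a measured group against one near background. This probe set passed the filter only through the CsA arrays of 48 h, so it gives no independent support to 204613_at. The remaining PLCG2 probe sets, 1557993_at and 1563263_at, stayed between 2.22 and 2.44 on all 12 arrays and carry no information on the gene.

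PLCG2 is a gene of blood cells, so leukocyte markers were read beside it. Of the 5 leukocyte markers with a probe set, 4 (PTPRC, CD79A, CD3E and SPI1) were under 4 on all 12 arrays and CD79B reached at most 4.23. The mean of the 5 ranged from 2.55 to 2.68 at 12 h, from 2.59 to 2.66 in control at 48 h and from 2.63 to 2.64 with CsA at 48 h.

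ITPKA, the IP3 kinase first known from neurons, had the widest span of the 7 genes and also the widest spread between arrays. On its single probe set, 205874_at, the 12 h arrays read 7.54, 7.01 and 6.88 in control and 7.37, 7.05 and 7.31 with CsA, and these groups overlapped. At 48 h the control arrays read 9.11, 7.58 and 8.99 and the CsA arrays 10.59, 10.01 and 10.60. Replicate 2 was the lowest array of both 48 h groups, and all CsA arrays lay above all controls. Group means at 48 h were 10.40 ± 0.34 with CsA and 8.56 ± 0.85 in control (SD, n = 3), a difference of 1.84 (SE 0.53) or 3.58-fold, ranked 9th. Leaving out 1 array at a time moved this difference between 1.35 and 2.11.

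CNIH3 was the gene whose level was lower at 48 h than at 12 h in control and higher with CsA. On probe set 214841_at the control arrays read 8.49, 8.33 and 8.43 at 12 h and 7.92, 7.36 and 8.10 at 48 h. The CsA arrays read 8.86, 8.63 and 8.74 at 12 h and 9.61, 9.24 and 9.74 at 48 h. All 4 groups were separate, in the order control at 48 h, control at 12 h, CsA at 12 h and CsA at 48 h. The 48 h means were 9.53 ± 0.26 with CsA and 7.79 ± 0.38 in control (SD, n = 3), a difference of 1.74 (SE 0.27) or 3.34-fold, ranked 10th. The other CNIH3 probe set, 238503_at, lay between 2.52 and 2.69 on all arrays, near background.

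CNIH3 and ITPKA are also genes of neurons, and 4 of 6 neuronal markers (RBFOX3, SYN1, NEFL and STMN2) were under 4 on all 12 arrays; SNAP25 was above 4 on all of them and SYT1 reached at most 4.28. The mean of the 6 ranged from 3.49 to 3.67 at 12 h, from 3.53 to 3.74 in control at 48 h and from 3.32 to 3.57 with CsA at 48 h, where CNIH3 and ITPKA were highest. The lower mean with CsA at 48 h came from SNAP25, at 7.09 against 8.50 in control; SYT1 read 3.34 against 3.22, and the other 4 differed by less than 0.1.

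UPP1, uridine phosphorylase, was level at 12 h and separated by both time and CsA at 48 h. On its only probe set, 203234_at, the 12 h arrays read 10.42, 10.52 and 10.49 in control and 10.40, 10.47 and 10.50 with CsA, which overlapped. At 48 h they read 11.58, 10.85 and 11.41 in control and 12.55, 12.28 and 12.78 with CsA, with all CsA arrays above all controls and both groups above the 12 h arrays. Mean levels at 48 h were 12.54 ± 0.25 with CsA and 11.28 ± 0.38 in control (SD, n = 3), a difference of 1.26 (SE 0.27) or 2.39-fold, ranked 42nd.

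PHYKPL had the smallest 48 h difference of the 7, with little spread between arrays. Probe set 226519_s_at read 6.16, 6.03 and 6.20 in control and 5.78, 6.03 and 5.70 with CsA at 12 h, which overlapped. It read 7.15, 7.28 and 7.35 in control and 8.16, 8.05 and 8.17 with CsA at 48 h, and each of these groups was separate from all others. Averages at 48 h were 8.13 ± 0.07 with CsA and 7.26 ± 0.10 in control (SD, n = 3), a difference of 0.86 (SE 0.070) or 1.82-fold, ranked 168th.

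The other PHYKPL probe sets were not alike. Probe set 232488_at followed the brightest, with 5.51, 4.69 and 5.48 in control and 4.60, 4.97 and 5.48 with CsA at 12 h. At 48 h it read 5.89, 5.86 and 6.75 in control and 7.82, 7.03 and 7.80 with CsA, a difference of 1.38 (SE 0.39). Probe set 226783_at, by contrast, read between 5.49 and 5.89 on 11 arrays and 6.90 on CsA replicate 3 of 48 h, so its difference of 0.45 (SE 0.40) rests on that array. Probe set 235669_at stayed between 1.75 and 1.77, near background.

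SLCO4A1 was lower at 48 h than at 12 h in both cultures, and by less with CsA. On probe set 219911_s_at the 12 h arrays read 12.62, 12.68 and 12.75 in control and 12.75, 12.75 and 12.98 with CsA, which overlapped. At 48 h they read 10.61, 10.06 and 10.71 in control and 11.91, 11.83 and 11.65 with CsA. The order was control at 48 h, CsA at 48 h, then the overlapping 12 h groups, with both 48 h groups separate from all others. Its 48 h means were 11.80 ± 0.13 with CsA and 10.46 ± 0.35 in control (SD, n = 3), a difference of 1.34 (SE 0.22) or 2.52-fold, ranked 33rd. Probe set 229239_x_at lay between 2.35 and 2.77, near background, on all arrays.

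ANKRD29 started close to background and, on its brightest probe set only, had the largest 48 h difference among the 7. On probe set 238332_at the 12 h arrays read 3.77, 4.00 and 3.71 in control and 4.59, 4.03 and 4.02 with CsA, close to the background level. At 48 h they read 4.90, 4.92 and 4.37 in control and 7.09, 6.36 and 6.46 with CsA. CsA at 12 h and control at 48 h overlapped, and CsA at 48 h stood above all. Its means at 48 h were 6.64 ± 0.40 with CsA and 4.73 ± 0.31 in control (SD, n = 3), a difference of 1.91 (SE 0.29) or 3.76-fold, ranked 5th. The second ANKRD29 probe set did not show it: 229308_at read 4.74, 5.36 and 4.56 in control and 4.51, 5.64 and 5.35 with CsA at 48 h, which overlapped, a difference of 0.28 (SE 0.42). Its 12 h arrays, 4.44, 4.05 and 3.41 in control and 4.04, 4.06 and 3.12 with CsA, overlapped too, and the mean of both probe sets gave a 48 h difference of 1.09. In control 229308_at was the brighter of the 2, with means of 3.97 against 3.83 at 12 h and 4.89 against 4.73 at 48 h. With CsA it was the dimmer, at 3.74 against 4.22 and 5.17 against 6.64. The choice of 238332_at as brightest thus drew on the CsA arrays, those of 48 h among them, which also chose the gene.

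**Figure D2:**
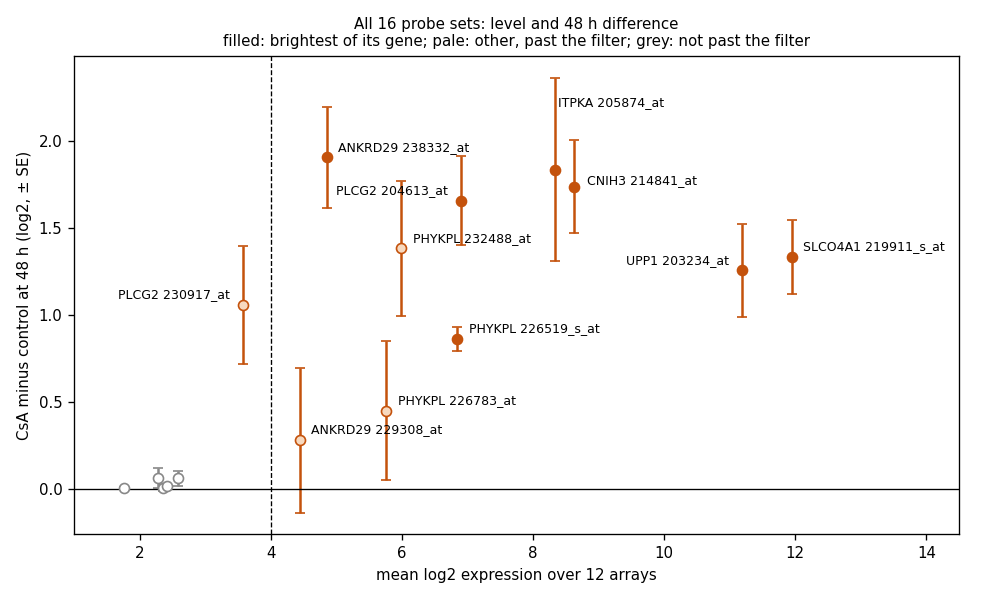
Difference between CsA and control at 48 h (log2, ± SE of 3 against 3 arrays) against the mean log2 level over 12 arrays, for all 16 probe sets; the dashed line marks log2 4. The 5 grey probe sets sit near 0 below log2 3, and ANKRD29 229308_at (0.28) and PHYKPL 226783_at (0.45) sit well below the brightest probe set of their gene.

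Set against time, the 7 genes divided by what the control cultures did. The log2 change from 12 h to 48 h in control was 1.42 for ITPKA, 1.13 for PHYKPL, 0.90 for ANKRD29, 0.80 for UPP1 and 0.32 for PLCG2, but -0.63 for CNIH3 and -2.22 for SLCO4A1. With CsA it was 3.16 for ITPKA, 2.42 for ANKRD29, 2.29 for PHYKPL, 2.08 for UPP1, 1.61 for PLCG2, 0.79 for CNIH3 and -1.03 for SLCO4A1. Thus 5 of 7 were higher at 48 h than at 12 h in control and 6 of 7 with CsA, and CNIH3 was the gene whose sign differed. For all 11154 genes, 90% of the changes lay between -1.16 and 1.13 in control and between -1.51 and 1.22 with CsA. UPP1, PHYKPL, ANKRD29, ITPKA and PLCG2 exceeded that range with CsA, only ITPKA exceeded it in control, and SLCO4A1 lay below it in control. The CsA difference at 48 h less that at 12 h was 1.74 for ITPKA, 1.52 for ANKRD29, 1.41 for CNIH3, 1.29 for PLCG2, 1.27 for UPP1, 1.19 for SLCO4A1 and 1.16 for PHYKPL. In bulk RNA, fewer cells that hold a transcript and less transcript per cell cannot be told apart.

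**Figure D3:**
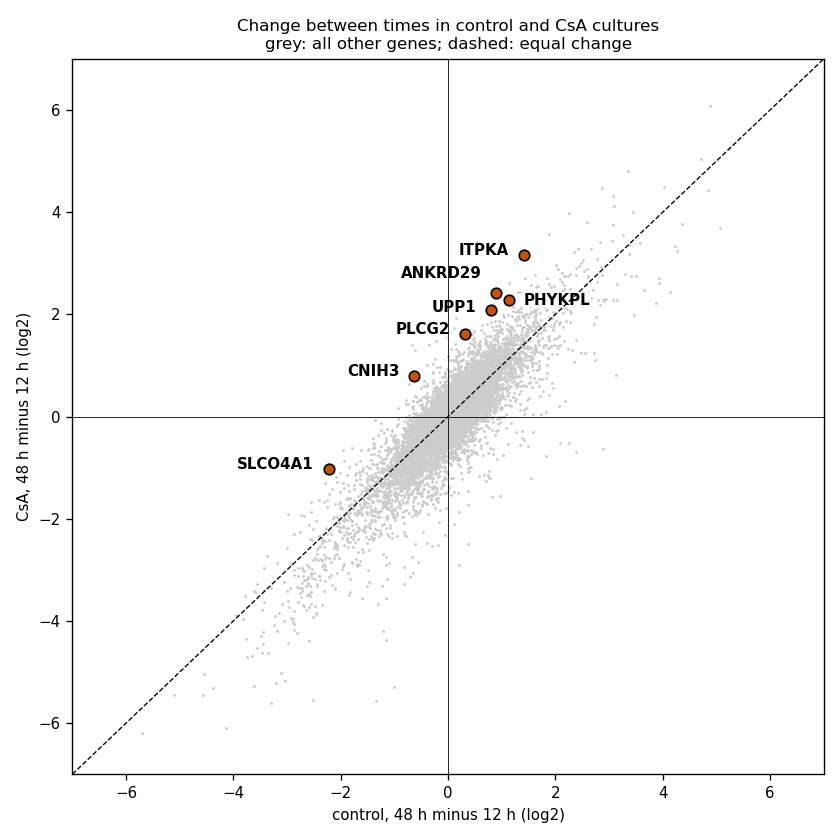
Log2 change from 12 h to 48 h with CsA (y axis) against that in control (x axis), from means of 3 arrays a group; orange points are the 7 genes, grey points the other genes tested and the dashed line equal change. All 7 sit above the line, with SLCO4A1 at -2.22 and -1.03 in the lower left and CNIH3 at -0.63 and 0.79 in the upper left.

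The 12 h arrays did not choose the difference at 48 h, so CsA against control at 12 h was tested in the 7 genes, although independence is partial because several were noted for differing from 12 h. None of the 7 passed limma's moderated test on the 6 arrays of 12 h, with Benjamini-Hochberg adjustment over 11154 genes and an adjusted p threshold of 0.05. Among all genes the count past the threshold was also 0 (0%), and 857 genes (7.68%) had an unadjusted p under 0.05. PLCG2 was higher with CsA by 0.37 (SE 0.059, adjusted p = 0.484), and CNIH3 by 0.32 (SE 0.083, adjusted p = 0.492). Both differences lay above the 95th percentile of all genes, 0.25, as did that of ANKRD29, 0.39 (SE 0.17, adjusted p = 0.686). PHYKPL went the other way, at -0.29 (SE 0.10, adjusted p = 0.589), below the 5th percentile of -0.22. SLCO4A1 differed by 0.14 (SE 0.086, adjusted p = 0.777), ITPKA by 0.10 (SE 0.19, adjusted p = 0.946) and UPP1 by -0.02 (SE 0.060, adjusted p = 0.980).

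Unadjusted p was under 0.05 at 12 h for 3 of the 7 genes, PLCG2, CNIH3 and PHYKPL. With the replicate number as a block it was so for the same 3, and for 1709 (15.3%) of all genes. All CsA arrays lay above all controls at 12 h in 3 of 7, PLCG2, CNIH3 and ANKRD29, against 6.53% of all genes, and below them in 0 of 7, against 6.51%. In ANKRD29 the groups were apart by only 0.02, at a level close to background. The second PLCG2 probe set was near background in both 12 h groups, and no difference is read from it there. The second ANKRD29 probe set, 229308_at, read -0.23 (SE 0.35, limma adjusted p = 0.949 over all probe sets past the filter), the other sign from 238332_at.

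For each of the 7 genes, the genes with the nearest profile were found by the root mean square (RMS) difference of log2 values, each centred on its own mean, over the 12 arrays. This is a description over arrays that share 4 groups, and it carries no test. The genes named have the smallest RMS values of all, so they lie under the median by construction. Their likeness in group means and 48 h differences follows from the same choice. CNIH3 lay nearest to LAMB3, a laminin subunit (RMS 0.166), and ITGA3, an integrin subunit (0.249), against a median of 0.722 for all other genes. LAMB3 shared with CNIH3 the low control level at 48 h: its group means were 8.74 and 9.11 at 12 h and 8.28 and 9.71 at 48 h, control before CsA. SLCO4A1 lay nearest to FOSL1, a subunit of AP-1 (0.278, median 1.00), and to PRKAG2, a subunit of AMP-activated kinase (0.282). FOSL1 was also lower at 48 h in both cultures, with means of 9.29 and 7.20 in control and of 9.54 and 8.36 with CsA, 12 h before 48 h.

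UPP1 lay nearest to SLC2A1, a glucose transporter (0.207, median 0.875), and to DUSP10, a phosphatase of MAP kinases (0.244). SLC2A1 had group means of 8.50 and 8.62 at 12 h and 9.36 and 10.64 at 48 h, a 48 h difference of 1.28 beside 1.26 for UPP1. PHYKPL lay nearest to SLC16A1-AS1 (0.194, median 0.922) and U2AF1L4, a splicing factor (0.196), whose 48 h differences were 0.86 and 1.02. PLCG2 lay nearest to ABTB1 (0.240, median 0.813) and ZEB1-AS1 (0.249), whose 48 h differences of 1.24 and 1.09 were smaller than that of PLCG2.

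ANKRD29 had DKK1, a secreted inhibitor of Wnt signalling, among its 2 nearest genes (0.445, median 1.11), and DKK1 differed by 1.88 at 48 h. For ITPKA the nearest were PRPH, a neuronal intermediate filament protein (0.389, median 1.38), and IRF1, an interferon-response transcription factor (0.400), with 48 h differences of 1.63 and 1.02. Among the 7 genes themselves, UPP1 and PHYKPL were nearest to each other (0.304), UPP1 was also the nearest of the others to PLCG2 (0.349), ANKRD29 (0.445) and ITPKA (0.545), and SLCO4A1 stood apart, with CNIH3 its nearest at 0.884.

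**Figure D4:**
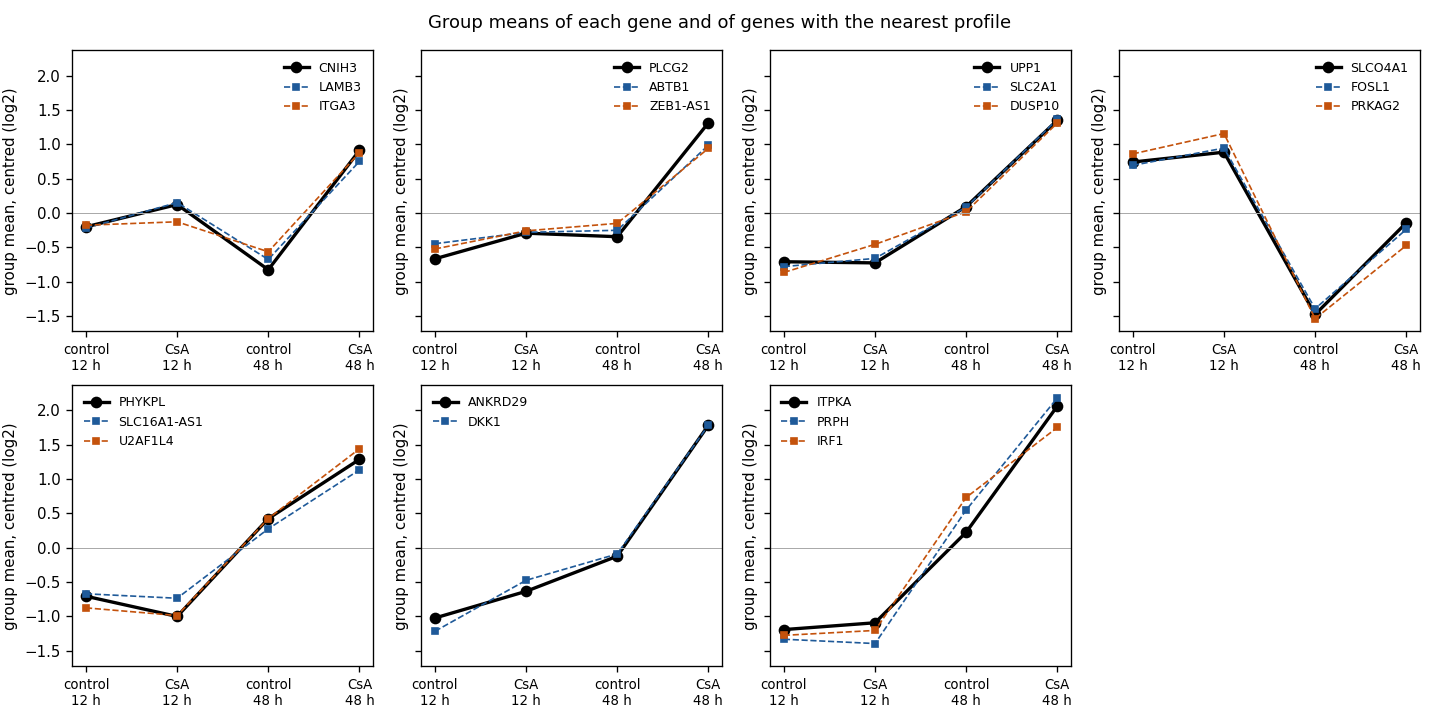
Group means of each of the 7 genes (black) and of the 2 genes with the nearest profile over 12 arrays (blue and orange; 1 of them, DKK1, for ANKRD29), each centred on its own mean, in log2 units. The black line of SLCO4A1 drops from 12 h to 48 h in control and partly in CsA, that of CNIH3 dips in control at 48 h only, and the other 5 are highest with CsA at 48 h and low at 12 h.

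The relatives of the 7 genes in the same pathways were read from 10 lists of 116 genes, of which 68 were measured. The 7 genes were not chosen on the values of these relatives, so CsA against control was tested in them by limma at each time. Independence is partial, because the lists were drawn up with earlier results of these data known. At 12 h 0 of the 68 passed. An unadjusted p under 0.05 was found for 3 (2 upstream of PLC gamma and 1 of pyrimidine synthesis), against 857 (7.68%) of all genes. With the replicate number as a block 0 passed and 13 had one, against 1709 (15.3%) of all genes. At 48 h 31 of 11154 genes (0.278%) were higher and 92 (0.825%) lower at an adjusted p under 0.05. Of the 68 relatives 1 was higher and 0 lower. An unadjusted p under 0.05 was found for 17 of the 68, against 2437 of the 11154 genes, a similar share. The unadjusted counts of each list below have that same background. Over all genes the median 48 h difference was -0.005, with 90% between -0.78 and 0.56.

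Around PLCG2, the gene that passed was EGFR, the epidermal growth factor receptor, which recruits phospholipase C gamma. The list was drawn up for phospholipase C gamma and does not separate PLCG2 from PLCG1. EGFR read 12.07 ± 0.24 with CsA and 11.10 ± 0.09 in control at 48 h (SD, n = 3), a difference of 0.97 (SE 0.15, limma adjusted p = 0.0462). At 12 h it differed by 0.14 (SE 0.07, adjusted p = 0.729). The 48 h call is close to the threshold: it was kept in 7 of 16 alternative analyses, with adjusted p from 0.0013 to 0.531 and differences from 0.80 to 1.09. It was lost without any one of 5 of the 6 arrays, all but CsA replicate 3, with adjusted p from 0.0778 to 0.191, and with the replicate number as a block (0.0734). The other 6 measured genes of the 14 upstream kinases and adaptors did not pass, and the list's median was 0.21. LAT, an adaptor of T cell signalling, differed by 1.08 (SE 0.22, adjusted p = 0.0702) and LYN, a kinase, by -0.60 (SE 0.18, adjusted p = 0.136), both named after their values were seen. BTK, SYK and BLNK, the partners of PLCG2 in B cells, had means of 2.29, 2.58 and 2.26 over the 12 arrays and did not pass the filter.

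PLCG1, the other gamma isoform and the one of most tissues, read 9.64 ± 0.26 with CsA and 9.73 ± 0.25 in control at 48 h, a difference of -0.09 (SE 0.19, limma adjusted p = 0.813). Of the 12 phospholipases C listed, 6 were measured and 0 passed at 48 h (2 at an unadjusted p under 0.05), with a median of 0.13; PLCD3, named after its values were seen, differed by 0.70 (SE 0.15, adjusted p = 0.0721). Around ITPKA, 15 of 16 IP3 receptors and inositol phosphate enzymes were measured and 0 passed (2 unadjusted), with a median of 0.01. Its paralogs read -0.42 (SE 0.29, adjusted p = 0.447) for ITPKB and 0.31 (SE 0.24, adjusted p = 0.481) for ITPKC. The differences in that list ran from -0.78 for ITPR2, an IP3 receptor, to 0.35 for INPP1, an inositol phosphatase.

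Around CNIH3, 3 of 13 cornichon and AMPA receptor genes were measured and 0 passed at 48 h (0 unadjusted), with a median of 0.08. CNIH1 differed by -0.05 (SE 0.17, limma adjusted p = 0.902) and CNIH4 by 0.08 (SE 0.10, adjusted p = 0.717). CNIH2, the cornichon most like CNIH3, had a mean of 1.91, and the AMPA receptor subunits GRIA1, GRIA2, GRIA3 and GRIA4 read at most 3.48 on any array, all near background.

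Around UPP1, 10 of 15 genes of pyrimidine salvage and breakdown were measured and 0 passed at 48 h (2 unadjusted), with a median of -0.08. UPP2, the other uridine phosphorylase, had a mean of 2.31 and did not pass the filter, nor did TYMP (3.50) or CDA (2.11). DPYD, which degrades the uracil that UPP1 yields and is named after its values were seen, read 5.97 ± 0.82 with CsA and 8.51 ± 0.26 in control at 48 h, a difference of -2.54 (SE 0.40, limma adjusted p = 0.0505). UCKL1, a uridine kinase-like gene also named after its values were seen, differed by 0.50 (SE 0.16, adjusted p = 0.143). Of the 9 genes of pyrimidine synthesis 9 were measured and 0 passed (4 unadjusted), with a median of -0.35. These genes were not alike, as those named next after their values were seen show. The 4 unadjusted were RRM2 at -2.18, CTPS2 at -0.79, DUT at -0.60 and DHODH, which was higher with CsA, at 0.65. CAD differed by 0.002 and UMPS by -0.20. Of 7 nucleoside transporters 3 were measured and 0 passed (0 unadjusted), with a median of -0.17.

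Around SLCO4A1, 3 of 10 organic anion transporting polypeptides were measured and 0 passed (0 unadjusted), with a median of -0.14. SLCO3A1 differed by -0.14 (SE 0.24, limma adjusted p = 0.766) and SLCO4C1 by -0.62 (SE 0.70, adjusted p = 0.649). SLCO2A1, named after its values were seen, went the other way, by 0.91 (SE 0.88, adjusted p = 0.589). Of 10 genes of thyroid hormone handling 5 were measured and 0 passed (1 unadjusted), with a median of -0.20. Around PHYKPL, 7 of 10 genes of hydroxylysine and lysine breakdown were measured and 0 passed (3 unadjusted), with a median of -0.44. HYKK, the kinase that makes the substrate of PHYKPL, had a mean of 3.82 and reached at most 4.20, and ETNPPL, its paralog, had a mean of 2.47; neither passed the filter.

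**Figure D5:**
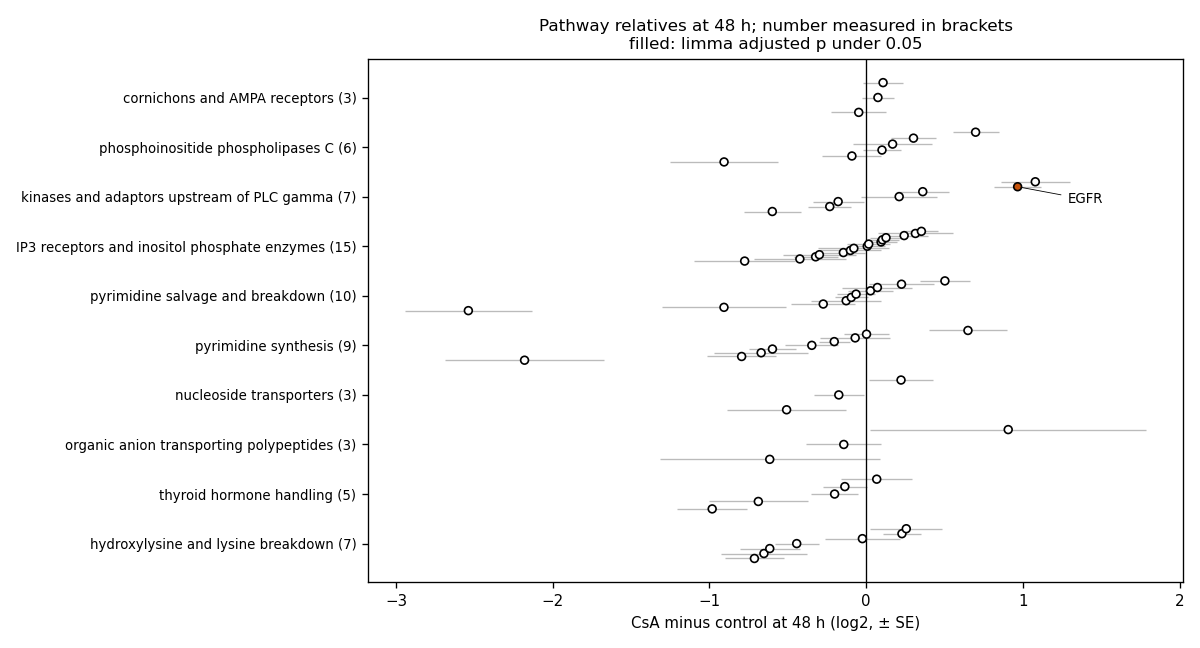
Difference between CsA and control at 48 h (log2, ± SE from limma, 3 against 3 arrays) for each of the 68 measured relatives, by list, with the number measured in brackets. The filled point is EGFR at 0.97, the only relative with an adjusted p under 0.05; the points farthest below 0 belong to the pyrimidine lists, with DPYD at -2.54.

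The arrays differed in technical signals at 48 h. The hybridization controls had a median of 7.38 on CsA replicate 3 of 48 h against 9.89 to 11.42 on the other arrays, and the poly-A controls read 4.32 and 5.04 on the replicate 1 arrays of control and CsA at 48 h against 8.38 to 10.18 elsewhere. Between 42.2% and 42.8% of probe sets were above log2 4 on each array. Without CsA replicate 3 the 48 h differences were 1.63 for CNIH3, 1.42 for PLCG2, 1.13 for UPP1, 1.41 for SLCO4A1, 0.84 for PHYKPL, 2.00 for ANKRD29 and 1.74 for ITPKA. Without both replicate 1 arrays they were 1.76 for CNIH3, 1.71 for PLCG2, 1.40 for UPP1, 1.36 for SLCO4A1, 0.79 for PHYKPL, 1.77 for ANKRD29 and 2.02 for ITPKA.

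The line was checked against its markers on the same arrays. Of 12 proximal tubule markers with a probe set, 5 (SLC4A4, PDZK1, PAX8, CDH6 and CDH16) were above log2 4 on all arrays and 7 (LRP2, CUBN, ANPEP, GGT1, AQP1, SLC34A1 and SLC22A6) were under it on all. Of 5 epithelial markers 4 (KRT8, KRT18, KRT19 and EPCAM) were above it on all, and CDH1, with a mean of 2.19, was under it on all. The mean of the proximal tubule markers was 6.05 to 6.10 at 12 h, 5.92 to 6.11 in control at 48 h and 5.67 to 5.75 with CsA at 48 h, where all 7 genes exceeded their 48 h controls. The 7 markers under log2 4 were flat. Of the 5 above it, the 48 h means with CsA and in control were 9.24 and 10.99 for SLC4A4, 10.80 and 11.82 for PDZK1, 11.89 and 13.05 for CDH6 and 6.39 and 7.34 for CDH16, whereas PAX8 was higher with CsA, at 11.90 against 10.81. Of 5 fibroblast and mesangial markers 2, COL1A1 and LUM, were above log2 4 on all arrays, COL1A2 was under it on all, and the mean of the 5 was 6.04 to 6.26 at 12 h, 6.05 to 6.43 in control at 48 h and 5.20 to 6.19 with CsA at 48 h. LUM read 7.18 with CsA and 8.86 in control at 48 h, COL1A1 9.06 and 10.01, DCN 3.68 and 4.53 and PDGFRB 5.14 and 4.93. The part of these marker levels in the differences of the 7 genes was not tested.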

How the data were processed

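The deposited values are log2 expression per probe set; GCRMA is named in the submitters' processing notes, and no source used here states its version or settings. Deposited p-values were not used. The 12 arrays hold 54675 probe sets, of which 41091 carry 1 gene symbol in GEO's platform annotation, 1801 several and 11783 none (array control probe sets counted among the last). Probe sets with 1 symbol and log2 above 4 on at least 3 arrays were kept (20625), and the one with the highest mean stood for its gene (11154 genes). CsA was tested against control with limma 3.58.1 in R 4.3.3 (lmFit, eBayes, two-sided, Benjamini-Hochberg) on the 6 arrays of each time, with 4 residual degrees of freedom, because the median SD was 0.103 and 0.107 in the 12 h groups and 0.147 (control) and 0.200 (CsA) in the 48 h groups; 3 arrays a group limit the precision. The fit was run on simulated arrays with known changes and independent errors, where the median estimated change was checked. The calls were recorded there but not held to a limit.

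Replicate numbers in the labels paired the arrays at 12 h, where deviations of same-numbered arrays correlated at 0.550, 0.577 and 0.467; at 48 h they did so at 0.096, 0.300 and -0.051. The fit with the number as a block changed no call of the 7 genes at 12 h (lowest adjusted p 0.159).

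Named genes are the 7 members, their closest relatives, up to 4 relatives a list past the threshold and the 2 genes of nearest profile to each member; 1 nearest-profile gene of ANKRD29 is not reported here, and those named after their values were seen are so marked. Members and lists were chosen with earlier results of these data known. SE at 48 h for members is that of 2 groups of 3 arrays, and a fold is 2 to the power of the difference. Alternatives covered filter, probe set choice, normalization, weights, prior, block, spread and each array left out.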

Additional observations from a re-analysis of the deposited data

Results flagged for a closer look

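EGFR, a receptor listed upstream of phospholipase C gamma without regard to isoform, was named because it passed the test at 48 h. Its CsA effects at the 2 times were then compared in 1 fit of all 12 arrays. The difference between CsA and control was 0.97 at 48 h and 0.14 at 12 h, and the first less the second was 0.83 (SE 0.16, limma adjusted p = 0.0466 with Benjamini-Hochberg over all genes tested). That fit shares 1 spread over times whose spread differs, and it raised the count of genes past the threshold at 48 h from 123 to 1795. In alternatives chosen after seeing the data, the adjusted p was 0.0423 with a replicate block and 0.00896 with array weights, and with 1 array left out it ranged from 0.0177 to 0.130, under 0.05 without CsA replicate 2 or 3 or control replicate 3 of 48 h and above it without any of the other 9 arrays. The 48 h effect by itself missed the threshold with the block (limma adjusted p = 0.0734). EGFR was picked by its 48 h effect on these same arrays, and that effect enters the difference. The adjusted p values of the difference therefore give no independent support.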

How the results depend on the processing

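The 7 genes failed the 12 h test in 105 of 105 alternatives (adjusted p 0.159 to 1.00, differences -0.39 to 0.49). Their 48 h differences moved by less than 1 within-group SD in 68 of 70. The exceptions were 0.96 for PHYKPL with quantile normalization and 1.09 for ANKRD29 as the mean of its probe sets. Leaving out 1 of the 3 arrays of a group cannot move a difference that far, so those alternatives could not fail. Nor could the mean of probe sets for CNIH3, UPP1, SLCO4A1 and ITPKA, which have only 1 probe set past the filter. The count of genes past the threshold at 12 h, 0, was 1 in 1 fit of all 12 arrays and 2 with the replicate block. At 48 h it was 123, and 1795 in 1 fit of all 12 arrays, 24 with the replicate block, 6 without the filter, 224 with the filter at log2 6, 200 with arrays centred on their median, 2018 with array weights and 310 with trend and robust priors. It ranged from 0 to 186 with 1 array left out, and was 0 without both 48 h replicate 1 arrays, an alternative chosen after seeing the data. Of the 68 relatives, 1 was higher and 0 lower at 48 h. In 1 fit of all 12 arrays 5 were higher and 9 lower, beside 692 and 1103 of all 11154 genes. With array weights the counts were 5 and 12, beside 658 and 1360 of all genes. With the replicate block they were 0 and 0, beside 3 and 21, and 20 relatives and 2336 of all genes had an unadjusted p under 0.05. The larger counts of relatives thus came with larger counts over all genes. The causes were not tested. The small number of arrays and the probe sets near background limit what can be read from dim genes such as ANKRD29.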
